A study of Mus musculus with 5 samples.

Results

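The hepatocytes of mice fasted for 16 h were compared, gene by gene, with those of fed mice. Hepatocytes were the barcodes with at least 1000 UMIs (unique molecular identifiers, each standing for 1 captured mRNA molecule), at least 500 genes, 2 to 30% mitochondrial UMIs and under 2% haemoglobin UMIs. The rule kept 7826 of 10000 barcodes of the fed library and 9125 of 10000 barcodes of the 16 h library, in all 16951 of the 50000 barcodes of the series. The study sampled the liver in the fed state and after 4, 8, 16 and 24 h without food, with 1 library for each time made with 10x Genomics 3' v3 chemistry from total hepatocyte isolates. All groups were male wild-type C57BL/6J mice on normal chow, trained for 3 days to fast for 16 h overnight and eat for 8 h by day. On the last day all mice had chow and water with 20% sucrose, and the fed group was taken after 4 h of feeding, at clock hour 13. The 16 h group had then lost food and sucrose water and was taken at clock hour 5, so that fasting and the hour of the day cannot be told apart in this comparison. Neither age nor the number of animals per library is given in the sources used here. Where 5 levels follow in time order, they are those of the fed, 4, 8, 16 and 24 h libraries.

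After a meal with sugar, the liver takes up glucose and fructose, stores glycogen and turns the surplus into fatty acids and triglyceride, under insulin and the transcription factors SREBP1c and ChREBP. During a fast it releases glucose and ketone bodies, under glucagon, glucocorticoid and PPARα. Hepatocytes also secrete most plasma proteins, among them the acute-phase proteins, whose genes respond to interleukin-6, interleukin-1, STAT3, NF-κB and C/EBP factors, and the endoplasmic reticulum chaperones that fold secreted proteins are set by the unfolded protein response.

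The genes with the largest ratios upward included several acute-phase genes, and those with the largest ratios downward included genes of fatty acid synthesis. Genes of glucose and fructose use, of the unfolded protein response and of heat shock proteins were also often lower, by the counts given with each list. The serum amyloid A genes Saa1 and Saa2 were at 382 and 217 CPM (counts per 1000000 nuclear-encoded UMIs) in fed hepatocytes and at 4880 and 4946 CPM at 16 h. Thrsp and Fasn, of fatty acid synthesis, were at 3592 and 2021 CPM fed and at 137 and 126 CPM at 16 h. Of 2994 genes with at least 50 CPM in either library, 99 (3.31%) were at least 2-fold higher at 16 h and 121 (4.04%) at least 2-fold lower, in all 220 (7.35%). At 4-fold the numbers were 15 (0.501%) and 35 (1.17%). The 2-fold counts of the lists below are to be read beside the 2-fold shares of all genes. The median log2 ratio over all 2994 genes was 0.0011, with 5% of genes under -0.88 and 5% above 0.82. TMM scaling instead gave 127 higher and 101 lower genes (55.7% of called genes on the higher side, against 45.0%), with a median of all genes of 0.097. With 1 library a side no test across animals was possible. Intervals in brackets are exact 95% intervals that cover counting error only, and differences describe these 2 libraries, not the feeding states.

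Both libraries were hepatocyte preparations by their markers: 12 of 12 hepatocyte markers had at least 50 CPM in each, and their summed level was 121898 CPM fed and 125034 CPM at 16 h. The median hepatocyte had 5408 UMIs fed and 4391 at 16 h, and 11.9% and 13.7% mitochondrial UMIs. The summed markers of other liver cells were low in both libraries and lower at 16 h, with 116 and 40.5 CPM for 12 endothelial markers, 52.5 and 8.05 CPM for 12 macrophage markers and 29.9 and 5.85 CPM for 10 stellate cell and fibroblast markers. The 7 cholangiocyte markers summed to 117 and 91.8 CPM, mostly Sox9, at 67.1 and 70.3 CPM. Neutrophil markers summed to 1.01 and 0.537 CPM, and the granule genes Ngp, Camp, Ltf and Mmp8 were at 0 in both libraries. Without barcodes that held markers of other cell types, 101 genes were 2-fold higher and 120 lower. The hepatocytes of both libraries shared 17 barcode sequences. The 4, 8 and 24 h libraries stand apart in number and depth, with 4567, 2716 and 4576 hepatocytes kept and medians of 12097, 15005 and 8979 UMIs, and the part of this in their levels was not tested.

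**Figure D1:**
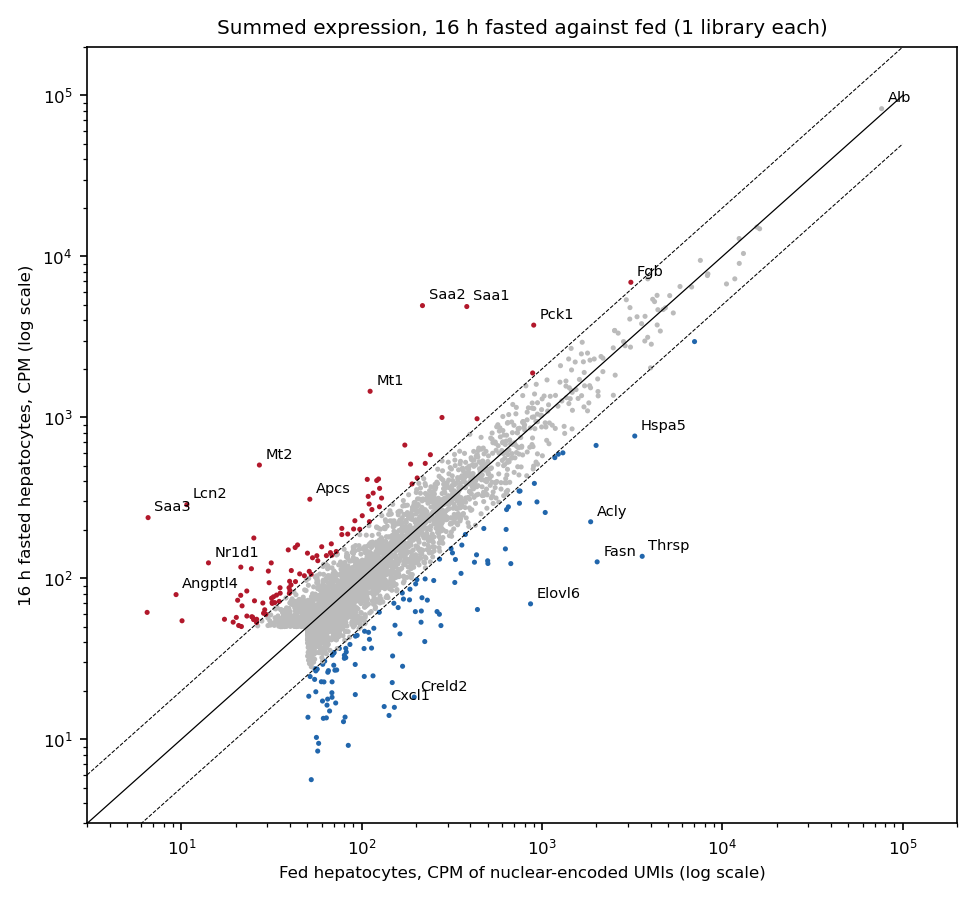
Each point is 1 of the 2994 genes with at least 50 CPM in either library, with its level in fed hepatocytes (horizontal, CPM, log scale) and in 16 h hepatocytes (vertical, CPM, log scale), summed over all hepatocytes of the library. The solid line marks equal levels and the dashed lines 2-fold. The 99 red genes lie 2-fold or more above, led by Saa3, Lcn2 and Saa2, and the 121 blue genes below, with Thrsp and Fasn farthest from the line.

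Of 28 acute-phase genes, 24 passed the minimum level, and 6 of them were at least 2-fold higher at 16 h and 2 at least 2-fold lower. Their median log2 ratio was 0.60, against 0.0011 for all genes, and 20 of the 24 were above 0. The 6 were Saa1, Saa2, Saa3, Lcn2, Apcs and Fgb. The genes of the 3 inducible serum amyloid A proteins, which bind to high-density lipoprotein in plasma, lie close together on chromosome 7. The bases before their start sites, from the RefSeq promoter table on GRCm38.p6, are shown because these 3 genes were among the 6 highest of all genes. Capitals mark the letters TTGCNNAA, a C/EBP-like motif, on either strand. Saa1 is read from chr7:46742981-46743230, minus strand, Saa2 from chr7:46751583-46751789, plus strand, and Saa3 from chr7:46715701-46715926, minus strand; the Saa2 and Saa3 windows stop where GENCODE M21 places the first exon.
Saa1: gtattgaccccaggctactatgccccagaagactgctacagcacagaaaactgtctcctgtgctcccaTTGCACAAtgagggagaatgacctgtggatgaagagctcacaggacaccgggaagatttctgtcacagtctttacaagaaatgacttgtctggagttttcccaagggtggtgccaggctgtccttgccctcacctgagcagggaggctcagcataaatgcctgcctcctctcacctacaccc
Saa2: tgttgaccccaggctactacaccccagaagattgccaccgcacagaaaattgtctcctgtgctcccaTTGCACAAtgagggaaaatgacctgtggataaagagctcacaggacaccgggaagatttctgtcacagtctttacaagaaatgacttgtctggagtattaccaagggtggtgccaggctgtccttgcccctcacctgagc
Saa3: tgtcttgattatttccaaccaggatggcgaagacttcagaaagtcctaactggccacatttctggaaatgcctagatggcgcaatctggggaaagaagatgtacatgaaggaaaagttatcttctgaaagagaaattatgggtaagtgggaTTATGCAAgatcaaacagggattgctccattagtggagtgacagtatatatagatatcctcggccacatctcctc

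The last base of the match lay 175, 176 and 92 bases before the RefSeq start of Saa1, Saa2 and Saa3. Saa1 and Saa2 share the letters TTGCACAA, while Saa3 holds TTATGCAA, the motif on the other strand. The same motif stood in the 250 bases before the start of 12 of 21 acute-phase genes found in the table, and in 9.56% of all 32851 promoters of that length. The 12 included Saa4 and Steap4, which were lower at 16 h, and did not include Apcs, which was higher. The first count is of genes with a match in any of their promoters, and the second is of single promoters. A match is a description of letters and no evidence of a factor at the site. Over 250 bases before the start, Saa1 and Saa2 were 94.8% identical, and over the last 300 bases of their transcripts, where 3' reads fall, 92.4%. How the reads of this pair were split between the 2 genes is therefore uncertain, whereas Saa3 was 45.9% identical to Saa1 over the same stretch.

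Saa2 was at 217, 1085, 12.8, 4946 and 9.66 CPM in time order. Its 16 h level was 22.8 times the fed one (log2 4.51 [4.48, 4.54]). Saa1 followed with 382, 1148, 37.9, 4880 and 21.1 CPM in time order. In both genes the 16 h library was the highest, the 4 h library next, and the 8 and 24 h libraries lay below the fed one. Saa3, which is not subject to the uncertainty between Saa1 and Saa2, was at 6.54, 5.95, 4.29, 238 and 3.62 CPM in time order, a ratio to fed of 36.4 (log2 5.19 [5.00, 5.38]). Only the 16 h library of the 5 stood above 6.54 CPM.

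Lcn2, which encodes the siderophore-binding protein lipocalin 2, was at 10.7, 45.9, 7.07, 287 and 16.0 CPM in time order. Apcs, which encodes serum amyloid P, was at 51.5, 51.5, 22.7, 310 and 27.8 CPM in time order, 6.01-fold above fed at 16 h. The fibrinogen genes had smaller ratios. Fgb was at 3108 CPM fed and 6906 CPM at 16 h (log2 1.15), and its 2-fold call was lost among barcodes of 3000 to 8000 UMIs, at 0.96. Fga and Fgg, the other two chains of fibrinogen, had log2 ratios of 0.91 and 0.87. Fgl1, a fibrinogen-like protein secreted by hepatocytes, was at 173 CPM fed and 672 CPM at 16 h.

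The list did not move as a block. Haptoglobin (Hp, log2 0.10), orosomucoid (Orm1, 0.11) and Itih4 (0.31) had nearly the same level in both libraries. The iron hormone gene Hamp was at 766 CPM fed and 492 at 16 h. Saa4, the serum amyloid gene expressed without stimulus, was 3.10-fold lower at 16 h, and the metalloreductase gene Steap4 was 3.42-fold lower. Of 9 negative acute-phase genes, which fall during inflammation, 0 were 2-fold different (7.35% of all genes were, so that a count of 0 in so short a list is near the background), from Serpina6 at -0.45 to Serpina1e at 0.40. Of 34 complement and coagulation genes 0 were 2-fold different either, with a median of 0.14.

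Among 8 measured genes of cytokine signalling, 1 was 2-fold higher and 2 were 2-fold lower, against 3.31% and 4.04% of all genes. Nfkbia, an inhibitor of NF-κB, was at 25.1 CPM fed and 55.4 at 16 h. Bcl3, an NF-κB cofactor, was at 64.7 and 17.7 CPM, and the neutrophil chemokine gene Cxcl1 at 133 and 16.0 CPM. Cxcl1 was low in all 4 fasted libraries, with 133, 8.89, 0.532, 16.0 and 9.79 CPM in time order. Socs3, the feedback inhibitor of STAT3, did not reach the minimum, with 31.4 CPM fed and 12.6 at 16 h. The interleukin-6 receptor gene Il6ra and Stat3 had log2 ratios of 0.75 and -0.28. Of 5 measured interferon and antigen presentation genes, 0 were 2-fold different, which with 7.35% of all genes called is near the background.

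**Figure D2:**
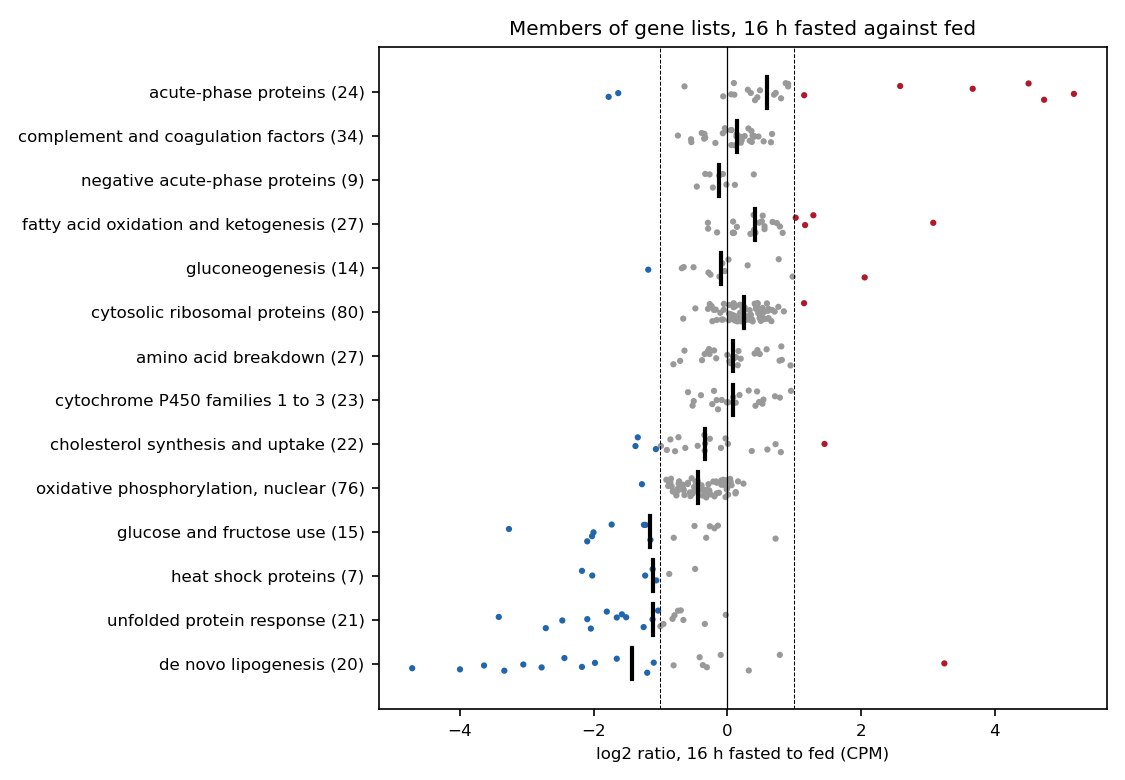
Each point is 1 gene of a list (the number of measured genes in parentheses) at its log2 ratio of 16 h to fed, and the black bar is the list's median. The solid vertical line is the median of all genes, the dashed lines are 2-fold, red genes are 2-fold higher and blue genes 2-fold lower. Lipogenesis, the unfolded protein response, heat shock proteins and glucose and fructose use have their medians below -1, and the acute-phase list spreads from -1.77 to 5.19.

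Of 20 measured genes of de novo lipogenesis, 12 were at least 2-fold lower and 1 at least 2-fold higher, with a median log2 ratio of -1.42. Thrsp, which encodes the lipogenic protein Spot 14, was at 3592, 1108, 458, 137 and 477 CPM in time order. It was 26.2-fold lower at 16 h than fed (log2 -4.71 [-4.76, -4.67]), and the 16 h library was the lowest of the 5. Fasn, fatty acid synthase, was at 2021, 83.1, 93.8, 126 and 114 CPM, so that the 4 fasted libraries stood close together. Elovl6, which lengthens palmitate, was at 863, 61.4, 22.6, 69.4 and 59.0 CPM. Acly, which makes cytosolic acetyl-CoA from citrate, was 8.29-fold lower at 16 h. The acetyl-CoA carboxylase genes Acaca and Acacb were 5.41-fold and 3.94-fold lower.

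The transcription factor genes of the pathway were also lower. Srebf1, which encodes SREBP1, was at 438 CPM fed and 64.0 at 16 h, and Mlxipl, which encodes ChREBP, at 170 and 74.3 CPM. Aacs, which activates acetoacetate for lipid synthesis, was at 142 and 14.1 CPM. Of the triglyceride genes, Gpam was 3.14-fold lower and Dgat2 2.14-fold lower. The desaturases did not share the drop: Scd1 was at 7548 CPM fed and 9445 at 16 h, and Fads1 and Fads2 had log2 ratios of -0.10 and -0.30. Elovl3, which lengthens saturated fatty acids, was the 1 gene of the list that was at least 2-fold higher. It was at 6.46, 234, 798, 61.4 and 15.0 CPM in time order. Its 16 h value was thus below those at 4 and 8 h.

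Of 15 measured genes of glucose and fructose use, which bring sugar into the pathway, 8 were 2-fold lower, with a median of -1.15. The fructose genes Khk and Tkfc were 2.33-fold and 4.06-fold lower at 16 h. Liver pyruvate kinase (Pklr) was at 213 CPM fed and 53.3 at 16 h. The glucose transporter gene Slc2a2 had a log2 ratio of -0.14, and Ldha, lactate dehydrogenase, was the 1 gene above 0, at 0.72. Ppp1r3b, which targets a phosphatase to glycogen and favours its synthesis, was at 671 CPM fed and 123 at 16 h. Ppp1r3c, a related subunit, was at 39.7 and 80.6 CPM, a 2-fold call that was lost in 2 of the other settings.

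On the side of glucose release, Pck1, which commits carbon to gluconeogenesis, was at 899, 3983, 3662, 3741 and 4719 CPM in time order. All 4 fasted libraries were above fed by a like factor, 4.16 at 16 h. It was the 1 gene of 14 in the gluconeogenesis list that was 2-fold higher (3.31% of all genes were), and the list's median was -0.09. The last step, glucose-6-phosphatase (G6pc), had a log2 ratio of 0.98, just under the 2-fold line. Its partner Slc37a4, which carries glucose-6-phosphate into the endoplasmic reticulum, was 2.27-fold lower. Fbp1 and Pcx had log2 ratios of -0.25 and -0.04. Of 27 amino acid breakdown genes, 0 were 2-fold changed, and of 8 urea cycle genes 1 was, Asl, at 475 CPM fed and 204 at 16 h. With 7.35% of all genes called, both counts are near the background.

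Of 27 measured genes of fatty acid oxidation and ketogenesis, 24 were above 0 (50.1% of all genes were), and the median was 0.42. Of the 27, 4 were at least 2-fold higher and 0 lower, against 3.31% and 4.04% of all genes. Angptl4, a secreted inhibitor of lipoprotein lipase and a target of PPARα, was at 9.34, 130, 333, 79.2 and 136 CPM in time order. Cpt1a, which admits fatty acids to mitochondria, was at 129, 209, 237, 315 and 440 CPM, in the order of fasting time. Acot4 and Etfdh were 2.24-fold and 2.04-fold higher at 16 h. Known PPARα targets under the minimum level included Acot1, with 2.78 CPM fed and 31.7 at 16 h, and the hormone gene Fgf21, with 6.27 and 18.7 CPM. Pdk4, another such target, was at 1.96 and 1.91 CPM, and the measured target Cyp4a10 had a log2 ratio of -0.15. Of the lipid droplet genes, the coat protein gene Plin2 and the lipase gene Pnpla2 were 2.07-fold and 2.12-fold higher.

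Cholesterol synthesis stood between these groups by its median of -0.34. Of 22 genes, 3 were 2-fold lower and 1 higher, against 4.04% and 3.31% of all genes. Fdps, which makes farnesyl diphosphate, was at 251 CPM fed and 96.9 at 16 h, whereas Hmgcs1, an earlier step, was at 302 and 527 CPM. Insig1 and Insig2, which retain the SREBP complex in the endoplasmic reticulum, differed in direction. Insig1 was 2.09-fold lower, a call lost in 3 other settings (TMM scaling, median-of-ratios scaling and no limits on the mitochondrial share), and Insig2 was 2.74-fold higher. Cyp7a1, the rate-limiting enzyme of bile acid synthesis, was at 72.6 CPM fed and 26.9 at 16 h, and its repressor gene Nr0b2 was at 31.9 and 69.8 CPM. Abcg8, a subunit of the sterol exporter, was 3.11-fold higher.

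Of 21 measured genes of the unfolded protein response, 12 were at least 2-fold lower at 16 h, with a median log2 ratio of -1.12. All 21 were below 0, of which Herpud1, at -0.02, changed sign in 4 other settings (0.06 with TMM scaling). Promoters of 3 of the 12 are shown because they hold the endoplasmic reticulum stress element, CCAAT, then 9 bases of any kind, then CCACG, given in capitals on either strand. Creld2 and Syvn1 were among the 20 lowest of all genes, and Calr was chosen as a further example after its values were seen. Creld2 is read from chr15:88819396-88819645, plus strand, Syvn1 from chr19:6046326-6046575, plus strand, and Calr from chr8:84846935-84847181, minus strand, all from RefSeq on GRCm38.p6; the Calr window stops at the first exon of GENCODE M21.
Creld2: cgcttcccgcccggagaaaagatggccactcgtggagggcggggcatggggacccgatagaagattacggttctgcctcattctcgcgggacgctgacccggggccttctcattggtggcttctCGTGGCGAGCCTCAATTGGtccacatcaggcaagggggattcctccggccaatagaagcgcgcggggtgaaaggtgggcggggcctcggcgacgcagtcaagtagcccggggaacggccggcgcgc
Syvn1: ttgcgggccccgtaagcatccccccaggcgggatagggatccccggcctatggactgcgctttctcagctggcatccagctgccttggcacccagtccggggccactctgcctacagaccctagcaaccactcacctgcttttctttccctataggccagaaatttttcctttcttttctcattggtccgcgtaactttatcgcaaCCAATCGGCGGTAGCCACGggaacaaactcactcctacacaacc
Calr: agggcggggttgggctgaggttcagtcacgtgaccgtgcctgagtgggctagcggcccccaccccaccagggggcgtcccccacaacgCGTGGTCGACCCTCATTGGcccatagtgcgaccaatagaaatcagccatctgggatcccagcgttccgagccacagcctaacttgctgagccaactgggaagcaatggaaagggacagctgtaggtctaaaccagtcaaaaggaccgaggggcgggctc

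The element stood in 37 of all 32851 promoters (0.113%), in 9 of 20 genes of this list and in 0 of 21 acute-phase genes. In Creld2 and Calr the match lies on the other strand, and in Syvn1 it ends 26 bases before the start. Creld2, a disulfide isomerase-like protein, was at 195, 24.8, 11.7, 18.3 and 7.90 CPM in time order. Hspa5, the central chaperone BiP, was at 3266, 689, 348, 765 and 332 CPM, 4.27-fold lower at 16 h (log2 -2.09 [-2.11, -2.07]). In both genes all 4 fasted libraries were below the fed one, and the 16 h library was not the lowest.

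Sdf2l1, a partner of BiP, was 6.56-fold lower at 16 h, and Syvn1, the ubiquitin ligase that removes misfolded proteins, 5.53-fold lower. The lumenal chaperones Hsp90b1 and Calr were 2.98-fold and 2.17-fold lower. The transcription factor gene Xbp1 had a log2 ratio of -0.82, and Herpud1, of the degradation complex, was level at -0.02. Of 7 measured heat shock genes of the cytosol and mitochondria, 5 were 2-fold lower. Hsph1 was at 148 CPM fed and 32.9 at 16 h, and Hspa8 at 755 and 348 CPM. The 3 measured genes of the integrated stress response were all within 2-fold, with Atf5 at 0.53 and Cebpg at -0.39.

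Stress and hormone-responsive genes among the 20 highest included the metallothioneins, small zinc-binding proteins that respond to glucocorticoid and metals. Mt1 was at 111, 5308, 6149, 1452 and 1640 CPM in time order. Mt2 was at 27.1, 1839, 1716, 505 and 405 CPM. Both were above fed in all 4 fasted libraries, with the 4 and 8 h values above the 16 h ones. Of the 6 measured genes on the glucocorticoid-responsive list, these 2 were 2-fold higher, and Tsc22d3 had a log2 ratio of -0.09. Under the minimum level, Sgk1 was at 14.8 CPM fed and 35.3 at 16 h, and Fkbp5 at 22.1 and 37.7 CPM. Igfbp1, an insulin-repressed binding protein of insulin-like growth factors, was at 21.4, 276, 276, 117 and 62.6 CPM in time order. Inhba, an activin subunit, was 4.67-fold lower at 16 h. The immediate-early gene Egr1 was at 39.1 CPM fed and 150 at 16 h.

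Clock genes differed between the libraries, which were taken at different hours. Nr1d1, the repressor REV-ERBα, was at 14.1, 3.38, 3.22, 125 and 8.94 CPM in time order. Only the 16 h library, taken at clock hour 5, stood high. Per2, a repressor of the core clock, was at 57.7, 9.09, 1.63, 9.43 and 17.9 CPM in time order, at clock hours 13, 17, 21, 5 and 13. Dbp, a clock output gene, was at 55.3 CPM fed and 79.7 at 16 h, after 1.92 at 8 h. Of 10 measured clock genes, 1 was 2-fold higher and 2 lower at 16 h, against 3.31% and 4.04% of all genes.

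The remaining genes among the 20 highest belonged to no common list. The ubiquitin ligase subunit gene Fbxo21 was at 25.2, 31.2, 30.8, 178 and 44.4 CPM in time order. Csad, of taurine synthesis, was at 107, 180, 200, 412 and 49.4 CPM. Both were highest at 16 h. Tcp11l2, Slc8b1, a mitochondrial sodium-calcium exchanger, Ppm1k, a phosphatase of branched-chain amino acid breakdown, and Agtr1a, the angiotensin receptor, were 3.67-fold to 5.40-fold higher at 16 h. Among the 20 lowest, Rcan1, a calcineurin inhibitor, was at 84.2 CPM fed and 9.16 at 16 h. Srm, spermidine synthase, was at 79.2 and 12.9 CPM, and Tsku, a secreted protein, at 168 and 28.4 CPM. Col27a1 and Gm14403 were 5.89-fold and 5.46-fold lower, and Nrep was 9.36-fold lower. Tmsb4x, thymosin β4, was 6.75-fold lower, but 3.06-fold lower (log2 -1.61) without barcodes that held markers of other cell types. Of the 99 higher and 121 lower genes, 27 (27.3%) and 55 (45.5%) belonged to any of the 30 lists, as did 549 (18.3%) of all 2994 genes.

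The other fasted libraries share the fed library with this comparison, so the values at each time are set side by side without a test. Against fed, the 4 h library had 169 of 2948 genes (5.73%) 2-fold higher and 176 (5.97%) lower. The 8 h library had 240 (7.95%) and 357 (11.8%), and the 24 h library 199 (6.68%) and 317 (10.6%). The same 24 acute-phase genes had medians of -0.02, -0.49, 0.60 and -0.59 at 4, 8, 16 and 24 h. The lipogenesis genes had -0.93, -1.11, -1.42 and -1.95, and the unfolded protein response genes -1.11, -1.76, -1.12 and -1.83. Glucose and fructose use had -0.73, -0.53, -1.15 and -0.41. The acute-phase median was above 0.5 at 16 h and below 0 at the other times, whereas the lipogenesis and chaperone medians were below 0 at every time. The genes of these lists had passed the minimum level in the fed or 16 h library. Saa3 and Lcn2 passed only by their 16 h level, and the 4, 8 and 24 h levels could admit no gene. The times are therefore not on an equal footing.

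**Figure D3:**
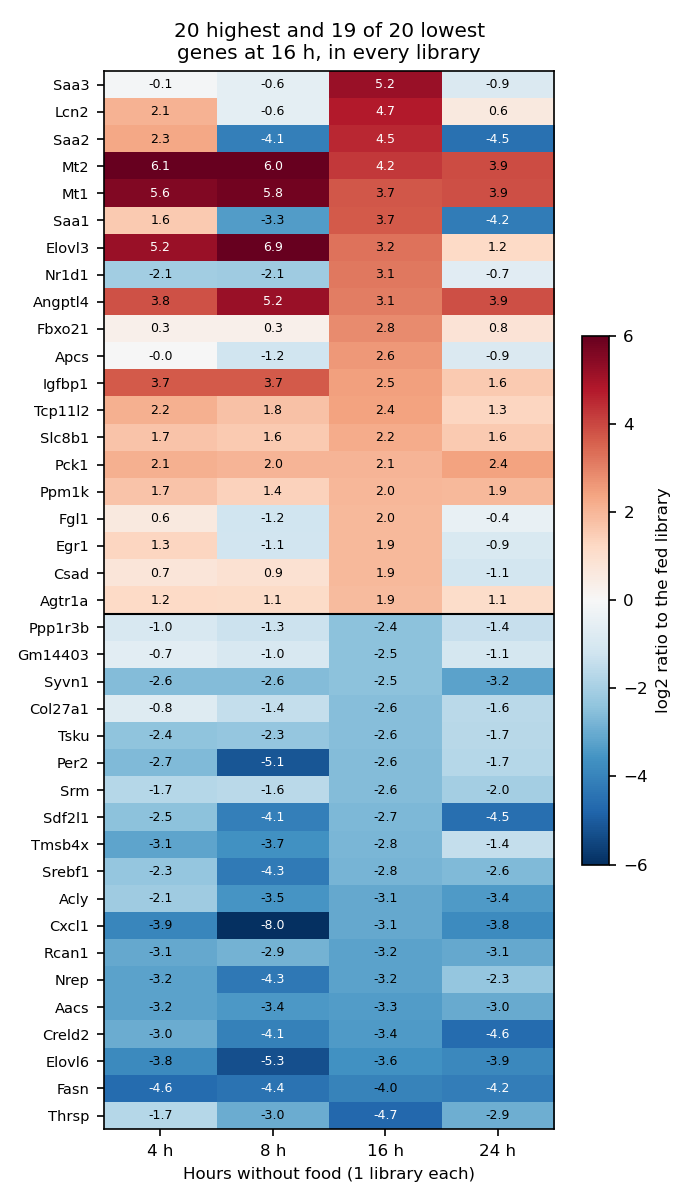
The 20 genes highest and 19 of the 20 lowest at 16 h (rows, divided by the black line) with their log2 ratio to the fed library after 4, 8, 16 and 24 h (columns, 1 library each), in colour and as printed values; the colours end at 6 and -6. Saa2 and Saa1 are above 0 at 4 and 16 h and below 0 at 8 and 24 h, while Fasn, Elovl6 and Creld2 are below 0 at every time.

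At the level of single cells, each hepatocyte was thinned to 1000 nuclear UMIs, which left out 0 fed and 122 of the 9125 hepatocytes of the 16 h library. The median fed hepatocyte then had 0 UMIs of Saa1 and Saa2 together, and 67.1% had none. At 16 h the median was 8 UMIs, the 75th percentile was 16, and 26.3% had none. The 16 h distribution thus held cells at 0 beside a broad range above, and 50.6% of its cells had 8 or more UMIs. Those cells had a median of 4749.5 UMIs and 12.2% mitochondrial UMIs, against 4278 and 16.2% for the cells with none, and 41.9% of them lay in the central zone described below, against 21.8%.

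Free RNA from broken cells contributes UMIs to every droplet. In 57 barcodes of the 16 h library with endothelial markers, which should not express these genes, the median was 2 UMIs of Saa1 and Saa2 and 31.6% had none. Their 95th percentile was 13.4 UMIs. Hepatocytes were not excluded from these barcodes, so they may include doublets and are only a rough guide to free RNA. The share of hepatocytes with a Saa2 UMI went from 13.7% [12.9, 14.5] fed to 65.7% [64.7, 66.7] at 16 h, and in endothelial-marker barcodes from 5.14% [2.90, 8.33] to 56.1% [42.4, 69.3]. The 16 h intervals overlap, so that this share alone does not clearly separate hepatocytes from background, whereas the median number of UMIs of Saa1 and Saa2 was 8 against 2. The intervals take barcodes of 1 library as units, so their overlap, or the lack of it, is no test of a difference. For Saa1 the intervals at 16 h did not overlap, with 67.0% [66.0, 68.0] of hepatocytes and 47.4% [34.0, 61.0] of endothelial-marker barcodes. For Saa3 the share went from 0.537% to 16.3% [15.5, 17.1] in hepatocytes and from 0.342% to 7.02% [1.95, 17.0] in endothelial-marker barcodes, and the 16 h intervals overlap as for Saa2. For Apcs it went from 5.26% to 23.9% in hepatocytes and from 0.685% to 3.51% in endothelial-marker barcodes. The share of hepatocytes with an Mt1 UMI was 9.75% fed and 58.7% at 16 h, against 29.5% and 75.4% of endothelial-marker barcodes. For Nr1d1 it was 1.43% and 11.5%, against 12.3% and 14.0%. Endothelial-marker barcodes exceeded hepatocytes for these 2 genes already in the fed library, so they give no background of free RNA for them. Unthinned, with median nuclear UMIs of 4702.5 fed and 3756 at 16 h in hepatocytes and of 1743.5 and 1239 in endothelial-marker barcodes, Saa2 was found in 30.6% and 79.2% of hepatocytes.

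The lipogenesis and unfolded protein response lists had lower medians per cell at 16 h, with overlap between the libraries. Thrsp UMIs were found in 93.7% of thinned fed hepatocytes and 11.7% at 16 h, against 82.5% and 7.02% of endothelial-marker barcodes. Summed over 21 lipogenesis genes without Elovl3, the median hepatocyte had 18 UMIs fed and 12 at 16 h, against 6 and 3 in endothelial-marker barcodes. Scd1, at 7548 CPM fed and 9445 at 16 h, made up 37.1% of this sum fed and 76.3% at 16 h. Without it, left out after its values were seen, the median hepatocyte had 11 UMIs fed and 3 at 16 h, against 5 and 1 in endothelial-marker barcodes. The sum of 22 unfolded protein response genes had a median of 14 UMIs fed and 6 at 16 h in hepatocytes, and of 7 and 3 in endothelial-marker barcodes. The fed range from the 5th to the 95th percentile was 5 to 23 UMIs for this sum, and the 16 h range was 2 to 11.

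**Figure D4:**
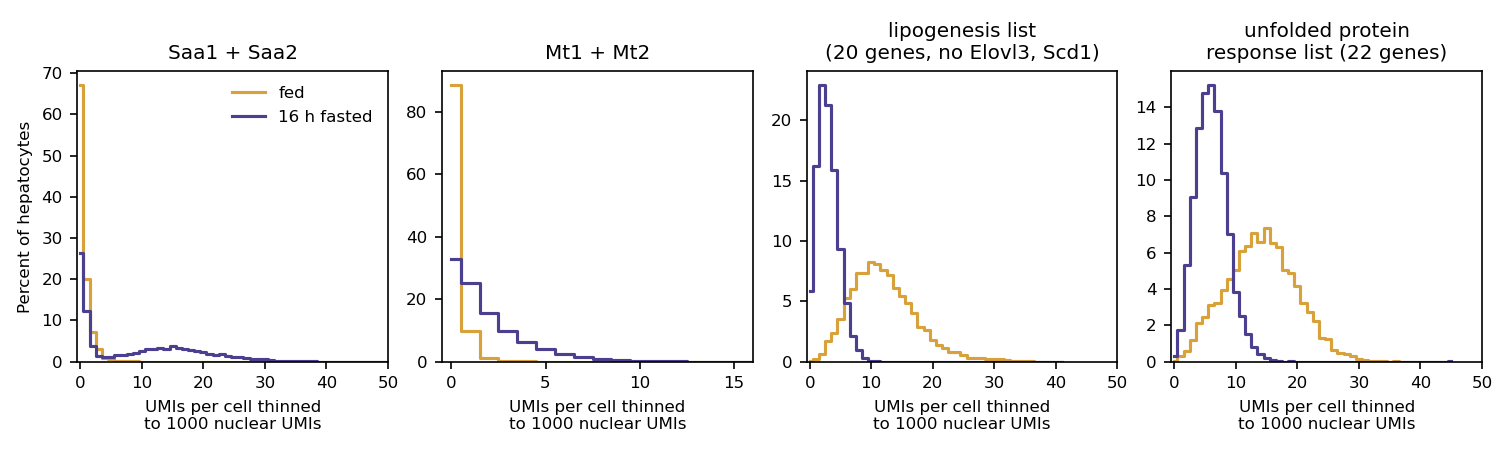
Percent of hepatocytes (vertical) at each number of UMIs per cell (horizontal) after thinning to 1000 nuclear UMIs, for fed (orange, 7826 cells) and 16 h fasted (purple, 9003 cells) libraries. For Saa1 and Saa2 the 16 h line has cells at 0 and a broad second range, while for lipogenesis and the unfolded protein response the bulk of the 16 h cells lies to the left of the fed cells, with overlap and with medians of 3 and 6 against 11 and 14. Elovl3 and Scd1 are left out of the lipogenesis list.

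Hepatocytes differ along the lobule from the portal to the central vein, so the comparison was repeated within 3 equal parts (zones) of a score built from portal and central landmark genes. The score orders cells within a library and measures no position in tissue. Cyp2e1, a central gene, had 111 CPM portal and 5465 CPM central in fed hepatocytes, and 219 and 6863 CPM at 16 h. The score is built from genes of this kind, so this split is no check on it. The middle zone had 229 CPM fed and 387 at 16 h, nearer to the portal level. Cyp2f2 had 2173 CPM portal, 2069 middle and 886 central in fed hepatocytes. The score thus mainly parted central cells from the rest. All 20 highest and all 20 lowest genes were 2-fold different in the same direction in both outer zones, and in the outer 20% of cells at either end. These genes were picked by their ratio over the same cells, so this outcome was nearly fixed in advance and adds no support. Saa2 was at 210 CPM fed and 3548 at 16 h in the portal zone, and at 155 and 6581 CPM in the central zone. Its log2 ratio was 4.08 [4.03, 4.13] portal and 5.41 [5.33, 5.49] central, and those of Saa1 were 3.17 and 4.57. For both genes the 16 h level was higher in the central zone, and the fed level lower there. The order of the ratios was the other way for Saa3, which was at 4.02 CPM fed and 203 at 16 h portal, and at 8.82 and 263 CPM central, with log2 ratios of 5.66 [5.30, 6.04] and 4.90 [4.58, 5.24]. Lcn2 had ratios of 4.78 and 4.72. Thrsp had ratios of -4.45 and -5.35, Fasn of -3.88 and -4.01, and Creld2 of -3.39 and -3.43.

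Tsku was among the genes that differed most between the zones, at 140 CPM fed and 10.3 at 16 h portal, and at 264 and 64.1 CPM central. Pck1 was at 1232 CPM fed and 4836 at 16 h portal, and at 470 and 2381 CPM central, and so kept its portal excess. Tmsb4x was at 203 CPM in the central zone of fed hepatocytes and 8.23 in the portal zone, and at 18.9 and 2.54 CPM at 16 h. In the fed library it was found in 3.35% of thinned hepatocytes, against 74.0% of endothelial-marker barcodes. The part of RNA from other cell types in its zone levels was not tested. The counts of the lists were alike in both zones for lipogenesis (12 lower in each) and the unfolded protein response (12 in each), and differed for acute-phase genes, with 6 higher portal and 10 central. Of all 2973 genes compared in the zones, 99 (3.33%) were 2-fold higher and 124 (4.17%) lower portal, and 115 (3.87%) higher and 148 (4.98%) lower central. No test of these differences between zones was made.

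**Figure D5:**
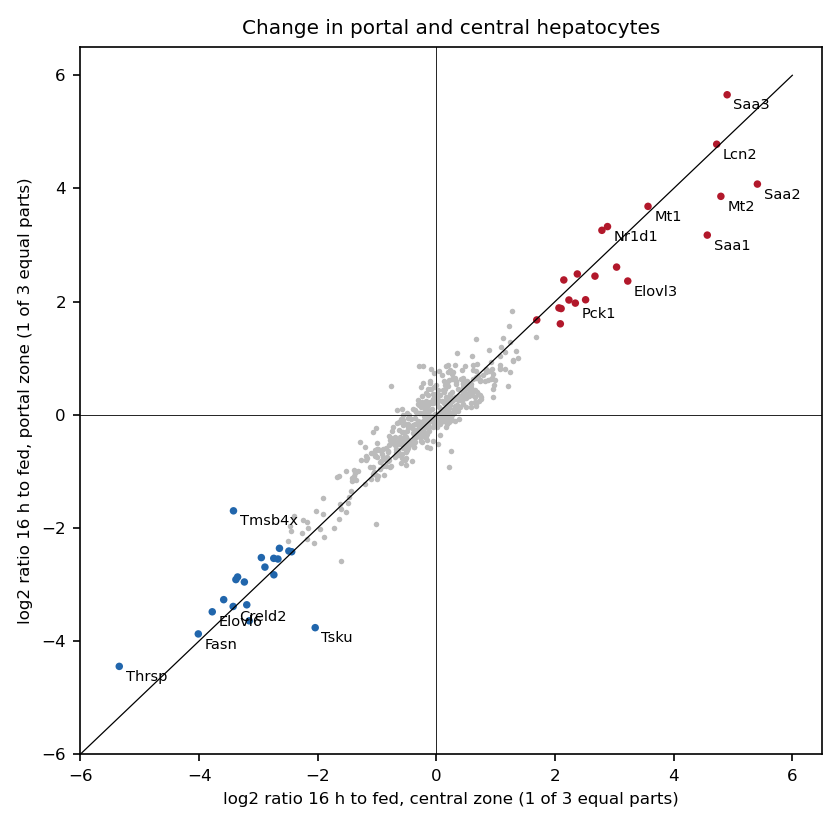
Each point is a named gene at its log2 ratio of 16 h to fed in the central zone (horizontal) and in the portal zone (vertical) of hepatocytes; coloured points are the 20 highest (red) and 20 lowest (blue) genes, and the line marks equal ratios. Saa1, Saa2 and Mt2 lie to the right of the line, with larger central ratios, and among the blue genes Tsku and Tmsb4x lie farthest from the line, Tsku below it and Tmsb4x above it. Tmsb4x was found in 3.35% of thinned fed hepatocytes and in 74.0% of fed endothelial-marker barcodes.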

How the data were processed

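The authors deposited raw UMI counts for each gene and barcode, without scaling. The file headers name Cell Ranger 6.0.1, and the submitters' processing notes name mm10. No source used here gives the annotation version. A deposited barcode table gave the library of each barcode and no cell type. The 2 libraries held 47071146 (fed) and 40002260 (16 h) UMIs, of which 37789268 and 33521626 were nuclear-encoded UMIs of hepatocytes. A level of 3 counts corresponds to 0.0794 and 0.0895 CPM.

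For each library, hepatocyte UMIs were summed per gene and scaled by the nuclear-encoded total. Genes with at least 50 CPM in either library were compared, and called at 2-fold. CPM have exact Poisson intervals, ratios exact conditional binomial intervals and shares exact Clopper-Pearson intervals, at 95% and for counting error only. The ratio script was tested on simulated data. No doublet caller was run, and doublets remain. A variant left out the 5% of barcodes with most UMIs. Endothelial-marker barcodes had at least 5 of 12 endothelial markers detected and served as a rough guide to free RNA. Barcodes of the hepatocyte set were not excluded from them, so some may hold hepatocyte RNA as doublets. Named genes are the 20 highest and 20 lowest genes and members of lists; a few of these are not reported here. Members, lists, motifs and zones were chosen with earlier results of these data known, and the split of cells by Saa1 and Saa2 UMIs was added after their distribution was seen. For the zone score, z-scores of landmark genes were averaged per cell, and the central average was taken from the portal one. Positions of promoters are RefSeq's on GRCm38.p6. Of 32285 gene IDs, 32158 were found in GENCODE M21. Scripts ran in python 3.11.15 with pandas 2.3.3, scipy 1.17.1, matplotlib 3.10.9 and numpy 2.4.6.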

Additional observations from a re-analysis of the deposited data

Results flagged for a closer look

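The barcodes that the hepatocyte filter left out for their mitochondrial or haemoglobin share, 2173 fed and 238 at 16 h, were outside the hepatocyte comparison. Those with under 2% haemoglobin UMIs were counted in the setting without limits on the mitochondrial share, and part of those with under 1% mitochondrial UMIs gave the profile of free RNA that another setting subtracted. In them the log2 ratio of 16 h to fed was 5.88 for Saa3, 5.32 for Saa2 and 4.91 for Lcn2, from 3.73, 122 and 4.72 CPM fed to 219, 4874 and 142 CPM at 16 h. All 20 highest and all 20 lowest genes of the hepatocyte comparison were at least 2-fold different in the same direction in these barcodes, but 13 of the 20 lowest had under 10 UMIs at 16 h, with Per2 at 0 and Rcan1 and Cxcl1 at 1. The counting intervals of 5 genes, Angptl4, Nrep, Tsku, Col27a1 and Syvn1, reach under 2-fold. Most of the barcodes had under 2% mitochondrial UMIs, 2172 fed and 234 at 16 h.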

How the results depend on the processing

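Of 13 other settings, 11 change the values of single genes, and in these 0 of the 40 highest and lowest genes lost the 2-fold difference or changed sign. These 40 genes were picked by their large ratios in the same libraries, so this outcome was nearly fixed in advance. Of the 96 named genes past 2-fold, 11 fell under 2-fold in at least 1 setting other than the minimum level: Fgb, Rpl22l1, Plin2, Etfdh, Ppp1r3c, Sel1l, Hsp90ab1, Gsta4, Insig1, Hspe1 and Ndufa5. A minimum of 10 CPM gave 211 higher and 265 lower genes and 9 higher fatty acid oxidation genes. A minimum of 200 CPM gave 34 higher and 46 lower genes, 5 lower glucose and fructose genes and 1 higher fatty acid oxidation gene. These counts follow from the number of genes compared, 7355 and 877. Over all settings the unfolded protein response list had 10 to 14 lower genes, lipogenesis 9 to 12 and the acute-phase list 5 to 7 higher genes. Without limits on the mitochondrial share, 103 genes were higher and 148 lower. With free RNA set to 10% of UMIs and subtracted, Ndufa5 had a log2 ratio of -3.83 against -1.28. No paired analysis was possible because each group is 1 library. Clock hour, animal and library differ together with fasting.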

Other observations

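The 2 large sets of housekeeping genes had opposite signs. Of 76 nuclear-encoded genes of oxidative phosphorylation, 67 had a ratio below 1 at 16 h (50.1% of all genes had one above 1), with a median log2 ratio of -0.44 and 1 gene past 2-fold, Ndufa5 at -1.28. The median of this list ranged from -0.69 without limits on the mitochondrial share to -0.24 among barcodes of 3000 to 8000 UMIs. The number past 2-fold was 1 in the portal zone and 13 in the central zone, where 4.17% and 4.98% of all 2973 genes were 2-fold lower. Of 80 cytosolic ribosomal protein genes, 65 had a ratio above 1, with a median of 0.25, but that median was -0.05 without limits on the mitochondrial share and -0.05 in the central zone, so its direction depends on which barcodes are counted. At 4, 8 and 24 h the same ribosomal genes had medians of 1.40, 1.29 and 1.11 against the fed library that all times share.

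Of 7 measured iron genes, 1 was 2-fold lower at 16 h, against 4.04% of all genes. It was the transferrin receptor gene Tfrc, at 68.5 CPM fed and 22.7 at 16 h. Ferritin light chain (Ftl1) was at 3995, 5809, 6102, 2029 and 7372 CPM in time order (fed, 4, 8, 16 and 24 h), so that the 16 h library was the only fasted one below fed. Of 13 hepatic nuclear receptors and transcription factors, Nr2f2, which encodes COUP-TFII, was at 60.0 CPM fed and 157 at 16 h. Onecut1, which encodes HNF6, was at 103 and 24.6 CPM. Of 23 cytochrome P450 genes of families 1 to 3 and of 17 apolipoprotein and lipoprotein assembly genes, 0 were 2-fold changed. Of 17 conjugation genes 1 was, the glutathione transferase gene Gsta4, at a log2 ratio of -1.07. With 7.35% of all genes called, these counts are near the background. Mup9 was 2.92-fold higher, and the other 10 measured major urinary protein genes were within 2-fold. These genes are near-identical copies, so their counts are uncertain.

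The mitochondrial limit of 2% cut through unequal numbers of barcodes. Between 1 and 2% there were 516 barcodes in the fed and 40 in the 16 h library, and between 2 and 3% there were 317 and 40. Under 1% there were 1654 and 194. The nuclear transcript Malat1 was at 4528 CPM fed and 3437 at 16 h, and Neat1 at 1457 and 1970 CPM.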
